A study of Mus musculus with 8 samples.

Results

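Heat shock genes and related handling stress genes were examined in neutrophils from mouse bone marrow. The set holds 10 genes chosen by name: Hspa1a, Hspa1b, Hspa8, Hsp90aa1, Hsp90ab1, Dnajb1, Hsph1, Dnaja1, Bag3 and Hmox1. Their probes were those labelled with a RefSeq transcript of the gene. Under this rule 14 of 55681 probes belonged to 9 of the 10 genes, and Hspa1b had no probe. A filter on dim probes, which asked for signal well above background on no fewer than 4 arrays of 8, left 13 probes and 8 genes among 21236 genes tested.

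The samples were Ly6G+ bone marrow cells of WT mice (4 samples) and ATF3 KO mice (4 samples), both on a C57BL/6 background, taken with magnetic beads and hybridised as Cy3-labelled RNA to single-colour Agilent arrays. ATF3, which cells make under stress, represses or activates genes as an ATF/CREB family member, and the series title concerns how neutrophils migrate. The labels give no age, no sex and no construction of the deleted allele, and they do not say that samples came from separate animals, so p-values measure the spread between these samples, which may be technical. The labels conflict on handling: the design text has RNA isolated at once after sorting, whereas the description of 7 of the 8 samples speaks of 1 week in methylcellulose with 4-OHT, and only WT replicate 1 is described as unmanipulated.

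Heat shock proteins are chaperones that hold and refold unfolded proteins. In warmed or otherwise stressed cells the factor HSF1 binds heat shock elements, arrays of short GAA and TTC units in alternating orientation, and induces Hspa1a, Hspa1b, Dnajb1, Hsph1 and Bag3, while Hspa8 and Hsp90ab1 are made in unstressed cells too. Such genes, with the immediate early genes, are commonly read as a sign of stress during the isolation of cells. Hmox1, heme oxygenase, belongs to another branch: it is controlled by NRF2 and BACH1, breaks down heme, and is abundant in the macrophages that take up old red cells.

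RefSeq promoter windows of GRCm38.p6, each holding the 250 bases before a transcription start and the 50 after it, were at hand for 6 of the 10 members (10 windows, because Dnaja1 has 3 starts and Dnajb1 and Hsph1 have 2 each). They are shown because HSF1 binds heat shock elements, whose letters were searched for in them. Capitals mark the heat shock element letters, and each sequence runs 5′ to 3′ on the gene's strand over 30 bases.
Hspa1a, chr17:34972242-34972271, minus strand: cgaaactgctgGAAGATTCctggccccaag
Hspa1b, chr17:34959324-34959353, minus strand: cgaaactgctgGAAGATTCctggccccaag
Dnaja1, chr4:40722333-40722362, plus strand: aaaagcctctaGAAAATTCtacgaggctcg
Hsph1, chr5:149636351-149636380, minus strand: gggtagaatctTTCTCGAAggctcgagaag
Hsph1, chr5:149636287-149636316, minus strand: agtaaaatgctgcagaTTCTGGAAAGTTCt
Bag3, chr7:128523603-128523632, plus strand: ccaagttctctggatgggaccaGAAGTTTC

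The pair of units GAANNTTC or TTCNNGAA, searched on both strands, was present in windows of 5 members, namely Hspa1a, Hspa1b, Dnaja1, Hsph1 and Bag3, and in 15.1% of all 32851 promoter windows. The element of 3 such units in alternating orientation, each pair spaced as above, was found in Hsph1 alone among the 6 members and in 0.603% of all windows. It includes a pair of each kind, so the matches overlap. It begins 37 bases after the start in the first Hsph1 window, and the Bag3 pair begins 43 bases after its start. The windows of Dnajb1 held no heat shock element letters of either form. The AP-1 letters TGANTCA were found in Bag3 (7.81% of all windows), and the CRE letters TGACGTCA, to which ATF/CREB factors bind, were found in no member window and in 1.79% of all windows. The antioxidant element TGANNNNGC, through which NRF2 acts, was found in windows of Dnajb1, Hsph1 and Dnaja1 and in 41.3% of all windows. The windows of Hspa1a and Hspa1b, neighbouring copies of the inducible HSP70 gene, had the same base at 296 of 300 positions. A member was counted if any of its windows matched, whereas the shares of all promoters are by single window. The counts and shares are therefore not in the same unit. A match is a description of letters, not evidence of a bound site.

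The 75th percentile of the signal, to which each array was scaled, ranged from 151 to 216 on WT arrays and from 113 to 161 on ATF3 KO arrays (two-sided exact permutation p = 0.0857). Values below are log2 signal minus this percentile unless called signal. On this scale the median difference of all genes, ATF3 KO minus WT, was −0.11, so a gene at −0.11 moved with the arrays as a whole. Of 15 neutrophil markers, 14 were tested and all 14 were above background on all 8 arrays. Ly6g had no probe named in the tables used here. All tested markers of the other cell types examined below were also above background on all 8 arrays, so this does not tell cell types apart. All 8 arrays lay on 1 slide with the genotypes in separate rows, so a genotype effect and an effect of position on the slide cannot be told apart. The Atf3 probe read 0.73 ± 0.07 on WT arrays and 1.24 ± 0.27 on ATF3 KO arrays (SD, n = 4), higher rather than lower, with a limma adjusted p of 0.12. The sources used here do not say if this probe falls in the deleted stretch, so it checks no genotype label.

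The heat shock genes did not differ between ATF3 KO and WT neutrophils beyond the threshold, and the heat-inducible Hspa1a was barely measurable in either group. Hmox1 was the member with the largest difference, 1.29-fold lower in ATF3 KO, with every ATF3 KO array below every WT array, yet it also missed the threshold. None of the 8 tested members passed an adjusted p under 0.05 in limma, against 0.447% of all genes tested, and 1 of 8, Hmox1, had an unadjusted p under 0.05, against 23.9% of all genes (14.5% lower and 9.39% higher). Of all genes 0.367% passed the adjusted threshold as higher and 0.0801% as lower. The difference was below 0 for 6 of the 8 members and for 65.5% of all genes. The median difference of the 8 was −0.06, and the groups did not overlap for 3 of them (Hspa8, Hsp90ab1 and Hmox1), where 15.1% of all genes had groups that did not overlap.

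**Figure D1:**
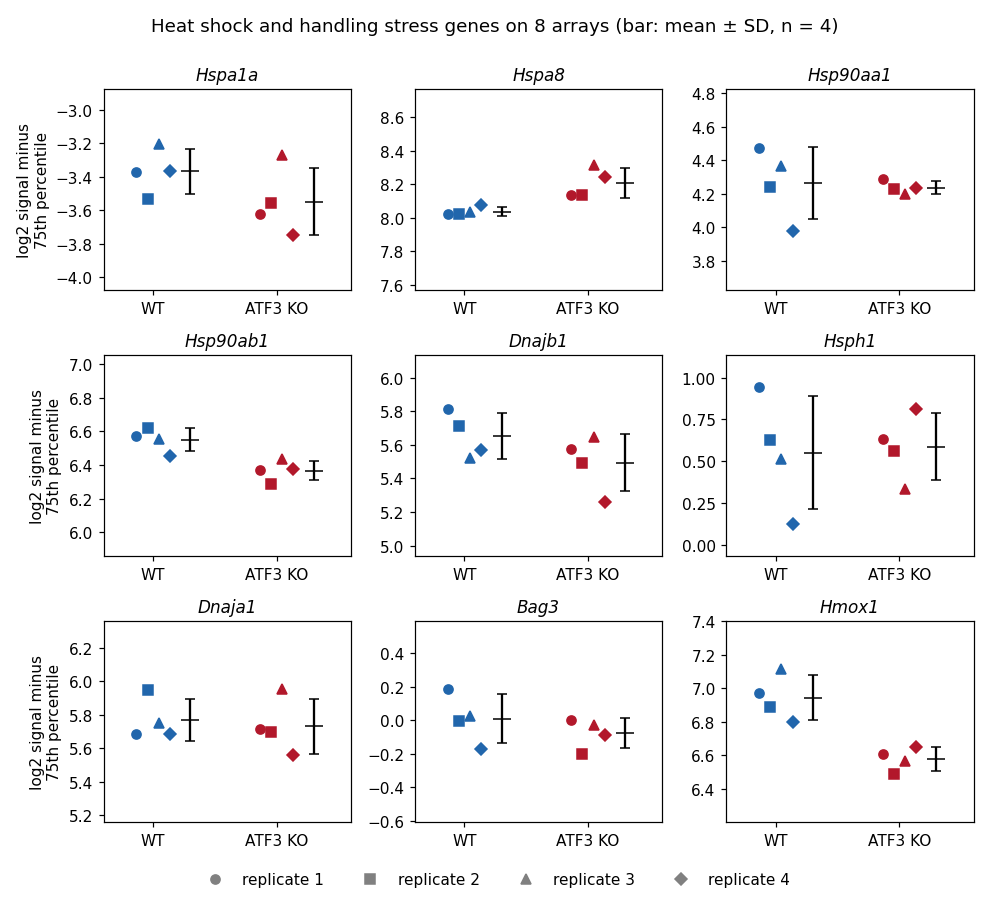
Log2 signal minus the array's 75th percentile (y axis, all panels spanning the same number of units) of 9 member genes in WT (blue) and ATF3 KO (red); marker shapes give the replicate number and the bar is the mean ± SD of 4 arrays. Hmox1 and Hsp90ab1 lie lower and Hspa8 higher on every ATF3 KO array, the other panels overlap, and the values of Hspa1a are at background on 7 of 8 arrays.

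Among the HSP70 proteins, Hspa1a is the classic gene switched on by heat. Its only probe gave a signal of 20.8 on WT replicate 1, 18.7 on WT replicate 2, 17.8 on WT replicate 3 and 14.7 on WT replicate 4. On ATF3 KO replicates 1 to 4 the signals were 13.1, 13.1, 14.3 and 8.4. The probe was well above background on WT replicate 1 alone, and the lowest signals that counted as above background on the 8 arrays were 14.8 to 20.0. That lowest signal was 14.9 on WT replicate 1 and 17.7 to 20.0 on the other 3 WT arrays, and on the scaled values WT replicate 1 lay below WT replicates 3 and 4 and ATF3 KO replicate 3. Although the unscaled signals of the groups did not overlap, the scaled values did: they ran from −3.53 to −3.21 in WT and from −3.75 to −3.27 in ATF3 KO. Hspa1a and Hspa1b are near-identical genes, and which of their transcripts this probe binds was not examined here. No fold is given for Hspa1a, whose level was close to background in both groups.

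Hspa8 encodes HSC70, the constitutive HSP70 that folds new proteins and uncoats clathrin vesicles. It was far above background on all 8 arrays with each of its 3 probes. On the brightest probe the log2 values were 8.02, 8.02, 8.03 and 8.07 on WT replicates 1 to 4 and 8.13, 8.14, 8.32 and 8.24 on ATF3 KO replicates 1 to 4. All ATF3 KO values thus lay above all WT values, by a mean of 0.17 (SE 0.09, 95% interval −0.03 to 0.37, limma adjusted p = 0.26, exact permutation p = 0.0286, the smallest that 4 against 4 arrays allow). The other 2 probes did not share this separation, with differences of 0.05 (SE 0.10) and −0.03 (SE 0.15) when each probe was fitted as its own row and overlapping groups for both. Before scaling, the brightest probe's signal ran from 40586 to 55986 in WT and from 34022 to 45062 in ATF3 KO, lower rather than higher, so the sign of its difference depends on scaling the arrays. The within-group SD of this probe, pooled over both groups, was 0.0654, at percentile 1.25 of all genes. The difference stayed above 0 in all 19 alternatives. It ran from 0.0379 with normexp background correction and 0.0618 with the mean of the 3 probes to 0.32 with the percentile over detected probes. That percentile shifts all genes alike, and the median of all genes was 0.04 with it. Relative to the median of all genes in each alternative, the difference ran from 0.09 to 0.31.

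The HSP90 proteins mature kinases and receptors, Hsp90aa1 being the inducible form and Hsp90ab1 the constitutive one. Hsp90ab1 read 6.57, 6.62, 6.56 and 6.45 on WT replicates 1 to 4 and 6.37, 6.29, 6.43 and 6.38 on ATF3 KO replicates 1 to 4. The groups did not overlap, although WT replicate 4 and ATF3 KO replicate 3 almost met. The difference was −0.18 (SE 0.09, 95% interval −0.38 to 0.01, limma adjusted p = 0.23), against a median of −0.11 over all genes. It was −0.0725 with quantile normalization, −0.0329 with the percentile over detected probes and −0.0225 in the deposited log2 table. The median of all genes also moved, to −0.05, 0.04 and −0.03 in this order. Relative to that median, the difference was −0.08 in the main fit. Over the 19 alternatives it ran from −0.18 to 0.005 on this relative scale and was below 0 in 18. The unscaled signals of the groups overlapped. Hsp90aa1 read 4.48, 4.24, 4.37 and 3.98 in WT and 4.29, 4.23, 4.20 and 4.24 in ATF3 KO, in replicate order. Here WT replicate 4 was the lowest of all 8 arrays and WT replicate 1 the highest, and the ATF3 KO values lay between them. Its difference was −0.03 (95% interval −0.29 to 0.24, limma adjusted p = 0.90). This turned positive with quantile normalization, with the percentile over detected probes and in the deposited log2 table. Relative to the median of all genes it was 0.08 in the main fit and ran from −0.05 to 0.17 over the 19 alternatives.

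The HSP40 proteins deliver clients to HSP70 and speed its ATP use. Dnajb1, the strongly heat-induced HSP40, read 5.81, 5.71, 5.52 and 5.57 on WT replicates 1 to 4 and 5.58, 5.49, 5.65 and 5.26 on ATF3 KO replicates 1 to 4. ATF3 KO replicate 4 was lowest and WT replicates 1 and 2 were highest, while the other 5 arrays lay between 5.49 and 5.65 in mixed order. The difference was −0.16 (SE 0.12, limma adjusted p = 0.39), −0.0816 without ATF3 KO replicate 4 and −0.0081 with the percentile over detected probes. Relative to the median of all genes it was −0.05 in the main fit and ran from −0.22 to 0.02 over the 19 alternatives. Dnaja1, which works with HSC70 in the cytosol, had a bright probe with values from 5.69 to 5.95 in WT and from 5.56 to 5.95 in ATF3 KO and a difference of −0.04 (SE 0.11, limma adjusted p = 0.85). Its highest values came from WT replicate 2 and ATF3 KO replicate 3. A dim probe with the accession of the same gene was above background on 3 WT and 2 ATF3 KO arrays and differed by −0.16 (SE 0.16), also with overlapping groups.

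Hsph1 encodes HSP105, which exchanges the nucleotide of HSP70, and it was the member whose values spread most over the 8 arrays. It read 0.94, 0.63, 0.52 and 0.13 on WT replicates 1 to 4 and 0.64, 0.56, 0.33 and 0.82 on ATF3 KO replicates 1 to 4. WT replicates thus held both the highest and the lowest value, whereas the group means of 0.55 ± 0.34 and 0.59 ± 0.20 (SD, n = 4) differed by 0.03 (SE 0.18, 95% interval −0.36 to 0.43, limma adjusted p = 0.91). The second Hsph1 probe ranked WT replicate 1, ATF3 KO replicate 4, ATF3 KO replicate 3 and WT replicate 4 at the same 4 positions, from −0.62 down to −1.36, and differed between the groups by 0.09 (SE 0.17). On both probes the arrays of 1 genotype differed more than the genotype means did. WT replicate 1 was a bright array and WT replicate 4 the dimmest of the WT arrays, at 75th percentiles of 215 and 151. In ATF3 KO the dimmest array, replicate 4 at 113, had the highest Hsph1. The part of array brightness in this spread was not tested.

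Bag3, a co-chaperone that couples HSP70 to autophagy and is itself induced by HSF1, read 0.19, 0.00, 0.03 and −0.17 on WT replicates 1 to 4 and 0.00, −0.20, −0.03 and −0.08 on ATF3 KO replicates 1 to 4. The groups overlapped, with a difference of −0.09 (SE 0.11, limma adjusted p = 0.59), or −0.0299 without WT replicate 1. WT replicate 1 was the highest array for Hsp90aa1, Dnajb1, Hsph1 and Bag3. In WT replicate 4 all 7 chaperone and co-chaperone genes tested lay lower, against their own 8-array means, than the median gene did. Their mean deviation relative to the median gene was −0.20. Hspa8 is among them although replicate 4 was its highest WT array, because its mean includes the higher ATF3 KO arrays.

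**Figure D2:**
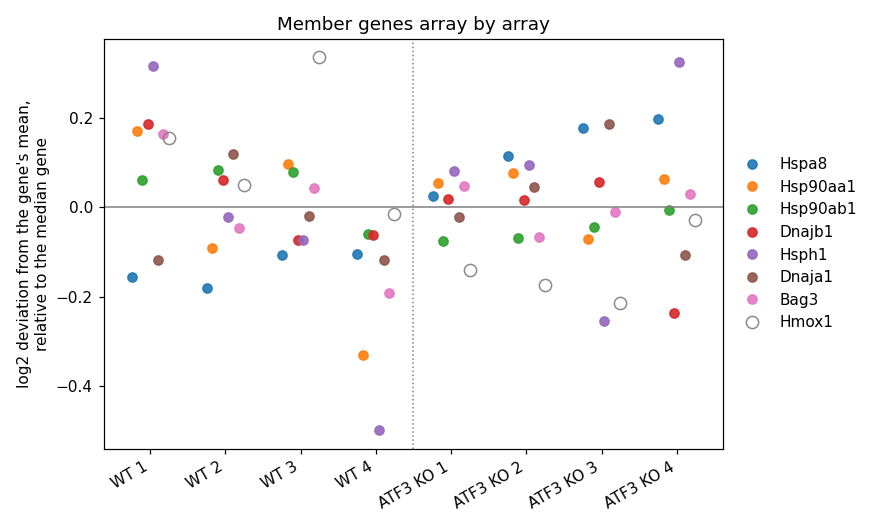
Deviation of each tested member from its own mean over the 8 arrays, on the log2 scale and relative to the median of all genes (y axis), for each array (x axis); colours give the gene and the open circles Hmox1. Hsph1 ranges from −0.50 on WT replicate 4 to 0.32 on ATF3 KO replicate 4, and the 7 chaperone genes average between −0.20 and 0.09 on the 8 arrays.

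Each gene's deviation from its own mean, relative to the median gene, was averaged over the 7 genes other than Hmox1. On WT replicates 1 to 4 the averages were 0.09, −0.01, −0.01 and −0.20. On ATF3 KO replicates 1 to 4 they were 0.02, 0.03, 0.01 and 0.04. The averages of the ATF3 KO arrays were close together and all lay inside the range of the WT averages. Single genes were not as close. They ran from −0.26 to 0.19 on ATF3 KO replicate 3 and from −0.24 to 0.32 on ATF3 KO replicate 4. On WT replicate 1 they ran from −0.16 to 0.32 and on WT replicate 4 from −0.50 to −0.06. WT replicate 1, the only sample described as unmanipulated, had the highest mean. The other 3 WT and all 4 ATF3 KO samples share 1 description. Within the groups the spread of a member was mostly narrow. Of the 8, 7 had a within-group SD under the median of all genes, with a median of 0.13 for the members and 0.20 for all genes. The exception was Hsph1, at percentile 71.7. Genes were not matched for brightness, so a narrow spread is not shown to be particular to heat shock genes.

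The named genes whose values over the 8 arrays were most like those of Hsph1 were Adal, an adenosine deaminase-like gene (Pearson r = 0.98, Spearman rho = 0.98), the DNA repair gene Xrcc3 (r = 0.98, rho = 0.98), the phospholipase gene Pla2g12a (r = 0.98, rho = 0.93), the folate carrier gene Slc19a1 (r = 0.97, rho = 0.98) and Bard1, the partner of BRCA1 (r = 0.97, rho = 0.86). They were chosen as the highest r among 13079 named genes over 8 arrays, so no p is given, and the arrays share depth and slide. All of the 5 were highest on WT replicate 1 and lowest on WT replicate 4, and none is a chaperone.

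Hmox1, which turns heme into biliverdin, iron and carbon monoxide, was the lowest member relative to WT. Its brighter probe gave signals of 26949, 25545, 22788 and 16801 on WT replicates 1 to 4 and 15644, 13796, 13100 and 11316 on ATF3 KO replicates 1 to 4. After scaling, the values were 6.97, 6.89, 7.11 and 6.80 in WT and 6.61, 6.49, 6.56 and 6.65 in ATF3 KO. The highest ATF3 KO array, replicate 4, lay below the lowest WT array, also replicate 4, and the groups did not overlap before or after scaling. The difference was −0.37 (SE 0.10, 95% interval −0.59 to −0.14), or −0.26 relative to the median of all genes, with a limma adjusted p of 0.12 (unadjusted 0.0050; exact permutation p = 0.0286, the smallest possible). The second probe was lower too: 3.90, 3.89, 4.06 and 3.83 in WT and 3.61, 3.52, 3.43 and 3.17 in ATF3 KO, a difference of −0.49 (SE 0.12, limma adjusted p = 0.11 among probes). The groups did not overlap for 10.9% of all genes with ATF3 KO lower, so a separation of this kind was common on these arrays. With normexp background correction Hmox1 passed the threshold (−0.49, limma adjusted p = 0.0407), the only one of 19 alternatives in which a member did, and its difference ran from −0.49 to −0.21 over the 19.

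**Figure D3:**
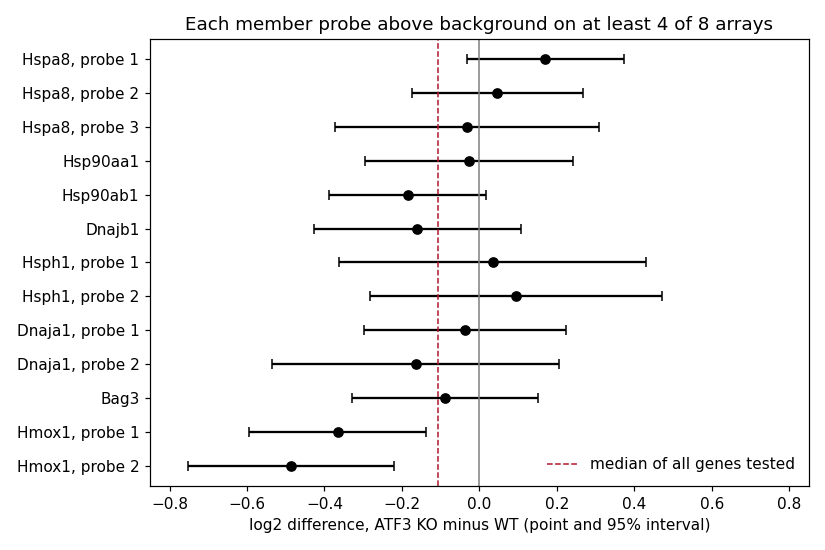
Log2 difference, ATF3 KO minus WT (x axis), of the 13 member probes that passed the filter on dim probes, with limma's 95% interval; probes of 1 gene are numbered from the brightest, and the dashed line is the median of all genes at −0.11. The intervals of both Hmox1 probes lie below 0, and those of the other 11 probes include 0.

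Macrophage markers were examined beside Hmox1. Of 15 listed, all 15 were tested, above background on all 8 arrays and lower in ATF3 KO, with a median difference of −0.37, or −0.26 relative to all genes. Vsig4, which encodes a complement receptor that macrophages of tissues carry, fell by 0.92 (SE 0.15, limma adjusted p = 0.0480), and 10 of the 15, Vsig4 included, had an unadjusted p under 0.05, where 14.5% of all genes were lower at that level. Timd4, which binds dying cells, differed by −0.63, the secreted macrophage protein gene Cd5l by −0.51, the hemoglobin scavenger receptor gene Cd163 by −0.65 and Spic, a factor of red pulp and marrow macrophages, by −0.31. The summed level of the 15 markers, in multiples of the array's 75th percentile, was 489 to 594 on WT arrays and 382 to 509 on ATF3 KO arrays, which overlap. The part of macrophage RNA in the Hmox1 difference was not tested. Markers of other cells were counted at an unadjusted p under 0.05, where 9.39% of all genes were higher and 14.5% lower. Of 14 neutrophil markers 6 were higher (median 0.21), as were 8 of 10 B lineage (0.57), 3 of 8 megakaryocyte and platelet (0.62) and 1 of 9 erythroid markers (0.11); 6 of 10 stroma and endothelium (−0.67) and 1 of 4 T and NK cell markers (−0.29) were lower, and 0 of 7 monocyte markers (−0.01) reached it in limma. None of these lists held a gene past the adjusted threshold. In sorted bulk samples fewer macrophages and less Hmox1 RNA per cell cannot be told apart.

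Heme handling and the NRF2 response were read from a further list. Of 20 listed, 19 were tested, 0 passed in limma and 5 had an unadjusted p under 0.05, all lower in ATF3 KO, against 14.5% of all genes lower at that level. Slc40a1, the iron exporter ferroportin, which macrophages also carry, read 6.28 ± 0.06 on WT arrays and 5.98 ± 0.13 on ATF3 KO arrays (SD, n = 4) without overlap, a difference of −0.30 (limma adjusted p = 0.15). The peroxide-removing enzyme gene Prdx1 differed by −0.42 (SE 0.12, limma adjusted p = 0.13), also without overlap, and the sulfiredoxin gene Srxn1 by −0.39 (SE 0.16). The list's median was −0.17, or −0.07 relative to all genes. The regulators Nfe2l2, which encodes NRF2, and Bach1 were looked up after the other values were seen and differed by −0.23 (SE 0.12) and −0.16 (SE 0.11).

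Relatives and partners of the heat shock genes did not pass either, and their counts at an unadjusted p under 0.05 stand against 14.5% of all genes lower and 9.39% higher. Of 23 tested HSP70 and HSP40 relatives, 0 passed in limma, 5 had an unadjusted p under 0.05 and were lower, 0 were higher, and the median was −0.14. The HSP40 genes with the smallest p were Dnajb9, a chaperone of the endoplasmic reticulum (−0.36, SE 0.12), and the membrane-anchored Dnajb12 (−0.32, SE 0.11) and Dnajb14 (−0.29, SE 0.10). Of 19 co-chaperones of HSP70 and HSP90, 0 passed and 2 were lower at an unadjusted p under 0.05, with a median of −0.18. These were the cyclophilin gene Ppid (−0.25, SE 0.09) and St13, an HSP70-interacting protein gene (−0.30, SE 0.12), followed by the ubiquitin ligase gene Stub1 (−0.25, SE 0.12). Among 13 small heat shock proteins and chaperonins 0 passed and 2 were lower at an unadjusted p under 0.05, the chaperonin subunit genes Cct8 (−0.27, SE 0.10) and Cct3 (−0.31, SE 0.13); Cct6a differed by −0.23 (SE 0.11), and the list's median was −0.19. The 5 lists of relatives, partners, factors and NRF2 genes had medians between 0.03 and 0.08 below that of all genes.

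Of 9 tested genes for heat shock factors and stress ubiquitin, 0 passed in limma and 0 had an unadjusted p under 0.05. Sqstm1, an autophagy receptor gene that is also an NRF2 target, had a mean difference of −0.69 (SE 0.31), but ATF3 KO replicate 1 stood at 2.08 against 3.18 to 3.75 on the other 3 ATF3 KO arrays. Ier5, a regulator of HSF1, differed by −0.43 (SE 0.20) and the HSF1-binding protein gene Hsbp1 by −0.27 (SE 0.15). Hsf1 itself, looked up after the other values were seen, read 0.59 ± 0.03 on WT arrays and 0.54 ± 0.06 on ATF3 KO arrays (SD, n = 4), a difference of −0.05 (limma adjusted p = 0.68).

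The other common sign of handling, the immediate early genes, was tested with the stress-induced metallothioneins in a list of 28. None passed in limma, 9 had an unadjusted p under 0.05 and were lower (14.5% of all genes), 0 were higher (9.39% of all genes), and the median was −0.16, or −0.05 relative to all genes. The metallothionein gene Mt1 read 4.57, 4.36, 4.82 and 4.70 on WT replicates 1 to 4 and 4.02, 3.95, 4.03 and 4.17 on ATF3 KO replicates 1 to 4, without overlap and with a difference of −0.57 (SE 0.12, limma adjusted p = 0.0813). The other metallothionein gene of the list, Mt2, differed by −0.22 (SE 0.13, limma adjusted p = 0.29), with overlapping groups. The zinc finger factor gene Egr1 read 2.66 ± 0.17 on WT arrays and 1.85 ± 0.36 on ATF3 KO arrays (SD, n = 4), a difference of −0.81 (SE 0.18, limma adjusted p = 0.0913). Its relative Egr3 was not well above background on the ATF3 KO arrays but was on all 4 of WT. Egr3 had means of −2.42 on WT and −4.43 on ATF3 KO arrays, and its WT mean was 1.49-fold above a floor set for the ATF3 KO arrays. It passed the filter on dim probes through the WT arrays alone, so the filter favoured a difference, which is no support (limma adjusted p = 0.0913). ATF3 KO replicate 2, at −3.01, lay just below WT replicate 1, at −2.99. Egr3 is 1 of the 9 genes counted as lower. The 1.49-fold divides the WT mean by an ATF3 KO mean in which each array contributes its lowest signal above background, or the signal of the probe itself if that was higher. That lowest signal is taken over all probes of the array. It need not be the limit for the Egr3 probe, so the fold is not a strict bound.

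**Figure D4:**
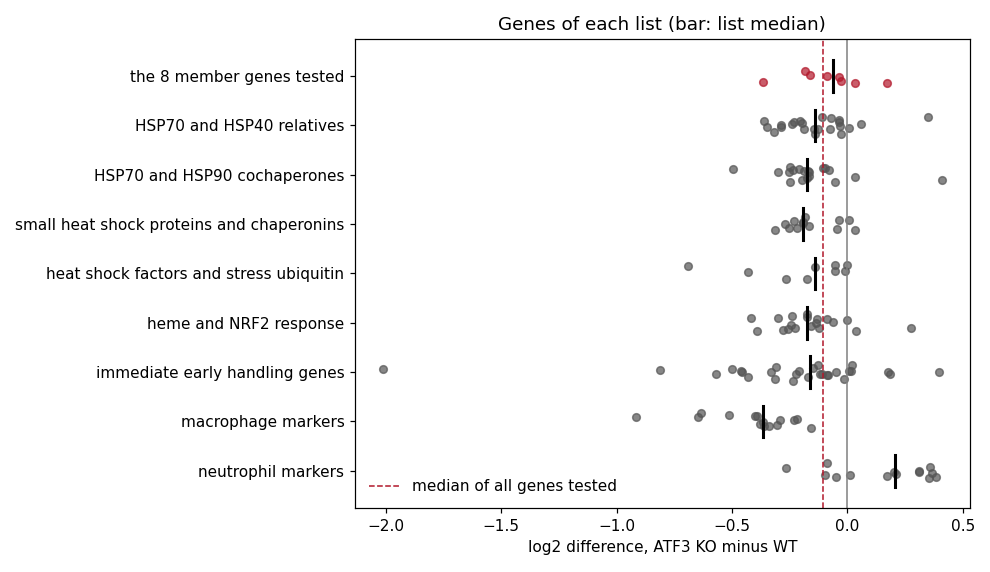
Log2 difference, ATF3 KO minus WT (x axis), of every tested gene of the member list, 6 lists of related stress genes and 2 marker lists (1 point per gene; vertical jitter only separates points); black bars are list medians and the dashed line is the median of all genes at −0.11. The member list and the stress lists centre between −0.19 and −0.06, the macrophage markers at −0.37 and the neutrophil markers at 0.21.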

How the data were processed

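Cy3-labelled RNA of 8 samples was hybridised to 1 slide of single-colour arrays. Per the file headers, the scanner output came from Feature Extraction 10.9.1.1 of Agilent, while the submitters' processing notes name 10.10. Its processed signal, as deposited, is an intensity on a linear scale; the headers do not list the steps behind it, and the 75th percentiles differ between arrays. The deposited series table holds log2 values of unstated scale, centring and direction. Set against the scanner values, every column was closest to the array of its own sample (r of 0.998 to 1 with log2 median signal; column medians 6.15 or 6.16), and it served as an alternative.

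Control spots and spots with outlier flags (98 to 159 per array) were left out, spots of a probe averaged, and the array's 75th percentile over all probes subtracted from log2 signal, since 50.01% of probe values were above background. Probes above background on at least 4 arrays were kept (27942), and the brightest stood for its gene. Symbols came from RefSeq accessions of GRCm38.p6 (27235 probes named). The files give mm9 for the array, so the only coordinates given are those of the RefSeq promoters. ATF3 KO and WT were compared in R 4.3.3 by limma 3.58.1 (functions lmFit and eBayes, genotype alone), and p-values were adjusted by Benjamini-Hochberg over all 21236 genes, with a threshold of 0.05; the permutation tests are exact and two-sided. The limma step was tested on simulated data with independent noise for each gene and array, whereas the arrays here share depth and slide. That test does not show which fold these arrays could detect. No arrays held identical values (smallest root mean square difference 0.282 on the log2 scale). Precision is limited by how many arrays there are.

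The members and lists were chosen with earlier results of these data known. The genes named are all 10 members, up to 3 genes with the smallest p from each list of related stress genes, the 5 genes most like the most variable member, and Atf3. Macrophage markers, 3 regulators and Mt2 were named after their values were seen. Lists are described by counts and medians with no test. The normexp alternative used the median signal because the files used here have no mean signal.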

Additional observations from a re-analysis of the deposited data

How the results depend on the processing

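The number of members past the threshold was 0 in the main fit and 1 with normexp background correction (Hmox1). It was 0 under every other alternative run: other scalings, filters and variance models, array weights, the deposited log2 table, the mean of a gene's probes, an adjusted p under 0.1 and leaving out each array, where it ran from 0 to 0. The numbers of WT and ATF3 KO samples pair nothing in the labels. Deviations of same-numbered samples had correlations over genes of mixed sign (0.19, −0.13, −0.27 and 0.18). The closest ATF3 KO array had the same number for WT replicates 1 and 4, but not for WT replicates 2 and 3. With the replicate block 0 members passed, Hmox1 had an adjusted p of 0.21 in limma, and 72 genes in all passed, against 95.

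Of 152 values for the 8 members, 136 kept their direction and their side of the threshold, 15 changed sign without passing it, and 1, Hmox1 with normexp, passed. With quantile normalization, the percentile over detected probes and the deposited log2 table, Hsp90aa1 was 0.13, 0.13 and 0.12 and Dnaja1 0.0911, 0.12 and 0.11. Bag3 was 0.0639 with the percentile over detected probes, and Hsph1 was −0.0412 with median scaling and −0.0453 with array weights. Leaving out each array, Hsp90aa1 ran from −0.12 to 0.0443, Hsph1 from −0.11 to 0.16, Dnaja1 from −0.11 to 0.0237, Dnajb1 from −0.21 to −0.0816, Bag3 from −0.15 to −0.0299, Hspa8 from 0.13 to 0.19, Hsp90ab1 from −0.22 to −0.16 and Hmox1 from −0.41 to −0.31. The median of all genes ran from −0.18 with median scaling to 0.04 with the percentile over detected probes. Both scalings shift every gene alike, so differences relative to that median do not change with them. Over the 19 alternatives, Dnaja1 ran from −0.07 to 0.14 and Bag3 from −0.07 to 0.08 on this relative scale. Hsph1 ran from 0.0046 to 0.27 and Hmox1 from −0.43 to −0.19. The number of all genes past the threshold ran from 9 without WT replicate 1 to 251 with normexp, or 10 with no filter. Signal near background limits Hspa1a and the dim Dnaja1 probe.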
